A study of Caenorhabditis elegans with 12 samples.

Results

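The genes described here are the protein-coding genes of the X chromosome of Caenorhabditis elegans, measured in early embryos. A gene was counted as a member when a feature of the deposited gene table lay on chromosome X and named exactly 1 coding gene, after names of 21U RNAs had been ignored. This gave 2592 X genes of 16631 such genes in all, the other 14039 lying on the 5 autosomes. The rule used position and name alone, so level, detection and tail length were independent of it. A further 33 X features that merge several coding genes (145 coding names) were left out.

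The libraries were made by PAT-seq, which tags adenylated RNA at its end, so that each read marks the 3′ end of a transcript and carries its poly(A) tail. There were 12 libraries in 6 groups of 2, all from early embryos, more than 90% of them between the zygote and the 24-cell stage. N2 worms were treated with pos-1 RNAi, gld-3 RNAi, gld-2 RNAi or mex-5 RNAi, the mex-6(pk440) mutant has the N2 background, and each was set against N2, the wild type laboratory strain. Untreated N2 worms ate E. coli OP50, whereas RNAi was induced by feeding E. coli HT115(DE3) that made double-stranded RNA, so food and gene knockdown cannot be told apart in those groups. The food of mex-6(pk440) worms is not stated separately from that of N2. Nothing in the labels says that replicates came from separate cultures, so p-values measure the spread between these samples, which may be technical. GLD-2 and GLD-3 are the catalytic and RNA-binding partners of a cytoplasmic poly(A) polymerase, whereas POS-1 and the related pair MEX-5 and MEX-6 bind RNA through zinc fingers and pattern the early embryo.

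Worms with a pair of X chromosomes are hermaphrodites and worms with a single X are males. The X chromosome is largely silent in the germline, so it is known to give fewer maternal transcripts than the autosomes. In the embryo, X signal elements count the X chromosomes and repress xol-1, the switch gene for male fate. In hermaphrodites SDC-2 then brings the dosage compensation complex, a condensin-like machine, to both X chromosomes, where it lowers their transcription.

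Each targeted transcript was low in its own group. The level of a gene is given as CPM, its count scaled to a common total of the reads on features that name 1 coding gene. pos-1 had 288 and 96.2 CPM in pos-1 RNAi and 1148 and 1476 CPM in N2, gld-3 had 20.4 and 20.3 CPM in gld-3 RNAi and 239 and 246 CPM in N2, and gld-2 had 14.3 and 7.83 CPM in gld-2 RNAi and 27.8 and 19.6 CPM in N2. mex-5 had 81.6 and 69.8 CPM in mex-5 RNAi and 1035 and 1057 CPM in N2. mex-6 had 17.5 and 7.02 CPM in mex-6(pk440) and 465 and 574 CPM in N2, and it was also low in mex-5 RNAi, at 50.6 and 30.4 CPM. Reads on coding genes ranged from 1916326 to 4392726 a library. Of 10 early embryo markers 9 were found, all above 1 CPM on average. Markers of differentiated tissue were present too. Those of muscle and cuticle were myo-1, myo-2, unc-54, unc-15, col-12, col-19 and col-140 (7 of 7 found). They summed to 1110 to 1114 CPM in gld-2 RNAi, 524 to 821 CPM in mex-5 RNAi, 125 to 214 CPM in pos-1 RNAi and 595 to 925 CPM in N2. In mex-5 RNAi the list split, with 4 of the 7 higher than in N2 and 2 lower (edgeR, adjusted p under 0.05). The 2 that fell were col-19 and col-140 (log2 change -4.26 and -4.16), while col-12 was among those that rose (1.49).

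About as many X genes as autosomal genes were detected, but X genes were present at lower levels. With detection set at 1 CPM, 49.4% and 47.9% of X genes were detected in pos-1 RNAi, 57.5% and 57.1% in gld-3 RNAi, 66.9% and 67.7% in gld-2 RNAi, 59.99% and 60.6% in mex-5 RNAi, 57.9% and 53.8% in mex-6(pk440) and 56.8% and 58.1% in N2. The same shares of autosomal genes were 52.3% and 51.9%, 57.0% and 56.1%, 64.5% and 64.3%, 59.1% and 59.7%, 57.7% and 54.7%, and 57.3% and 58.4%. The X share was thus the highest in both gld-2 RNAi libraries and the lowest in both pos-1 RNAi libraries. The X minus autosome difference was 2.87 ± 0.79 percentage points in gld-2 RNAi and -3.45 ± 0.77 points in pos-1 RNAi, against -0.40 ± 0.10 points in N2 (SD, n = 2 each).

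The near equality rested on chromosome V, on which a mean of 41.1% of genes were detected. Chromosome IV was near X, with means of 58.7% on IV and 57.8% on X, while I, II and III had 68.5%, 62.0% and 72.8%. The X share stood above V alone in 7 libraries and was the lowest of the 6 chromosomes in 0. Against the autosomes without V, the X share was lower in all 12 libraries, by a mean of 7.30 points (the X minus autosome difference ranged from -11.6 to -3.64). With every library thinned to 1916326 coding reads and detection set at 10 reads, the X share was again lower in all 12 libraries, with 45.9% and 44.5% of X genes in gld-2 RNAi and 37.7% and 39.2% in N2, against 47.4% and 46.0% of autosomal genes in gld-2 RNAi and 43.3% and 44.3% in N2. Across libraries, 1049 X genes (40.5%) were detected in all 12 and 589 (22.7%) in none, against 6284 (44.8%) and 3612 (25.7%) of the autosomal genes. The remaining 954 X genes (36.8%, against 29.5% of autosomal genes) were detected in some libraries and not in others.

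Among genes with a mean of at least 1 CPM, the median X gene stood at 8.04 to 15.1 CPM in the 12 libraries and the median autosomal gene at 19.6 to 24.6 CPM (1560 X and 8300 autosomal genes). Since reads mark transcript ends, these levels were compared between genes without division by length. The X median was the lowest of the 6 chromosomes in 10 libraries and stood above V alone in the other 2. X genes made up 15.6% of the coding genes and took 8.73% to 10.2% of the coding reads, the lowest share of any chromosome in all 12 libraries. Chromosome V also took a small share for its size, with 4293 of the 16631 coding genes and a mean of 15.5% of the reads. Few X genes were abundant: 158 (6.10%) averaged at least 100 CPM, against 1685 (12.0%) of the autosomal genes, and 75 of the 986 highest genes of both kinds (7.61%) were on X. Chromosome V was close to X here, with 288 such genes (6.71%). The X share of genes at 100 CPM was the lowest of the 6 chromosomes in 8 libraries and above V alone in 4.

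The level gap was smaller in gld-2 and mex-5 RNAi. The X to autosome ratio of medians was 0.633 ± 0.002 in gld-2 RNAi, 0.586 ± 0.020 in mex-5 RNAi, 0.457 ± 0.006 in gld-3 RNAi, 0.437 ± 0.012 in mex-6(pk440) and 0.402 ± 0.013 in pos-1 RNAi, against 0.443 ± 0.029 in N2 (SD, n = 2 each). The 4 libraries of gld-2 and mex-5 RNAi lay above the 8 others. The median of chromosome V genes was likewise higher in these groups, at 13.4 ± 1.3 CPM in gld-2 RNAi and 13.6 ± 1.3 CPM in mex-5 RNAi against 11.4 ± 0.69 CPM in N2. In bulk samples, fewer cells that express X genes and less X RNA per cell cannot be told apart.

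**Figure D1:**
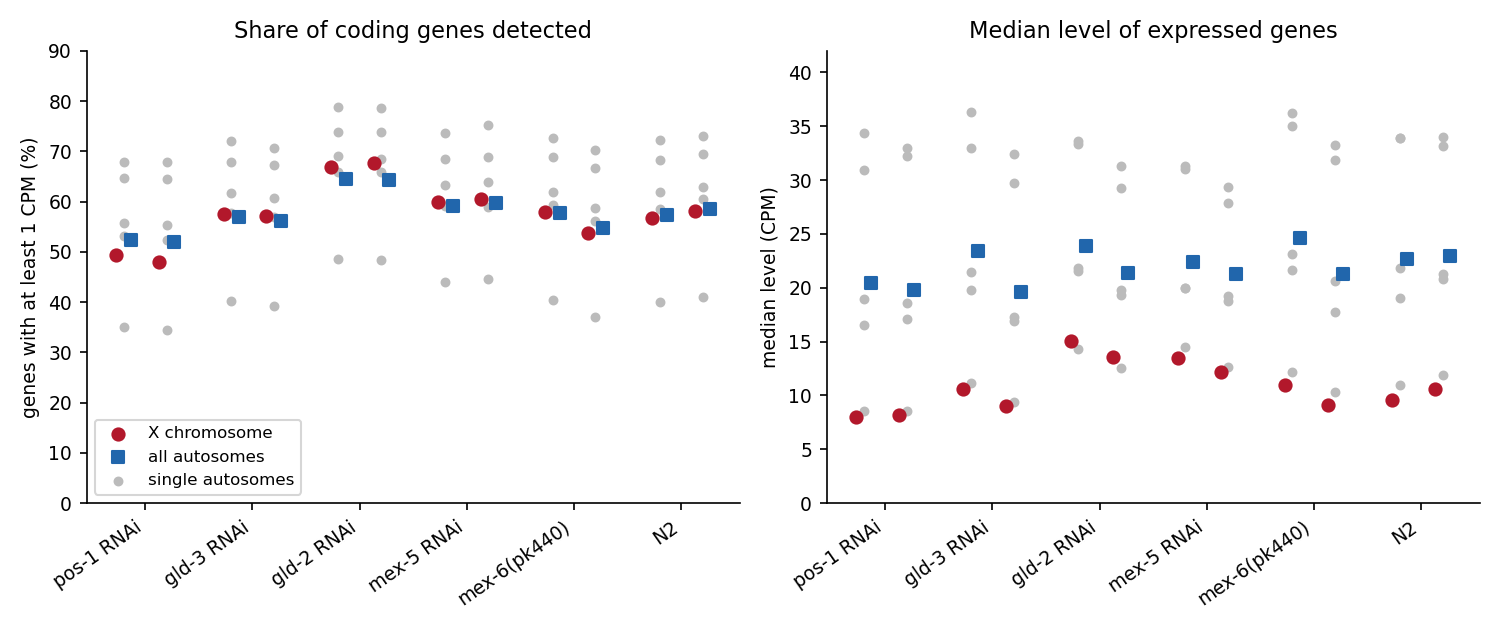
Share of coding genes with at least 1 CPM (left, percent) and median CPM of genes with a mean of at least 1 CPM (right), 2 libraries a group. Red circles are X, blue squares all autosomes and grey points single autosomes; the X median lies below the autosomal one in every library, and nearest to it in gld-2 and mex-5 RNAi.

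The most abundant X transcripts belonged to irld-23, F23A7.8, his-24, pdi-2, erd-2, F59C12.4, ftt-2, act-4, F23A7.4 and inx-3. irld-23 (chrX:17073736-17079649, minus strand, ce10), of a nematode family with insulin and EGF receptor-like L domains, averaged 8438 CPM. It had 6884 and 4911 CPM in gld-2 RNAi against 11603 and 11850 CPM in N2 (log2 change -1.10 ± 0.24 SE, adjusted p = 0.0055), and the groups did not overlap. Its reads did not come from the annotated end of the gene. A peak at chrX:17074910-17075010, 1174 bp before that end, held 52.3% of the reads on its 3 peaks, and a peak at chrX:17075351-17075451 held 47.1%. The linker histone gene his-24 (chrX:14490069-14490798) averaged 2756 CPM. It fell to 1227 and 1177 CPM in mex-5 RNAi, against 3745 and 2392 CPM in N2 (log2 change -1.20 ± 0.25, adjusted p = 0.0029).

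Of the other abundant X genes, F23A7.8 fell in gld-2 RNAi (log2 change -1.21 ± 0.39, adjusted p = 0.036) and mex-5 RNAi (-1.24 ± 0.39, adjusted p = 0.029). Some others rose in 1 or more groups. pdi-2, a protein disulfide isomerase of the endoplasmic reticulum (chrX:4524211-4526176), had 2798 and 3176 CPM in pos-1 RNAi and 2078 and 3004 CPM in mex-5 RNAi, against 1599 and 1456 CPM in N2. It rose in both (log2 change 1.02 ± 0.29, adjusted p = 0.036, and 0.89 ± 0.29, adjusted p = 0.033). erd-2, the receptor that returns proteins to the endoplasmic reticulum (chrX:10157148-10158682), had 2118 and 2043 CPM in mex-5 RNAi against 1254 and 1882 CPM in N2 (log2 change 0.57 ± 0.20, adjusted p = 0.047). ftt-2, a 14-3-3 protein gene (chrX:11603986-11605313), stayed between 1511 and 2130 CPM in the 12 libraries and passed the test in none of the 5 comparisons. act-4, an actin gene (chrX:4960631-4963953), rose to 2560 and 2716 CPM in gld-2 RNAi and 1688 and 2284 CPM in mex-5 RNAi, against 1286 and 1266 CPM in N2 (log2 change 0.96 ± 0.22, adjusted p = 0.0071, and 0.80 ± 0.22, adjusted p = 0.013). Reads from other actin genes of near-identical sequence could be shared with it.

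X transcripts carried longer poly(A) tails than autosomal ones. Tails could be compared for 681 X genes (26.3%) and 4558 autosomal genes (32.5%), which were those with a value and no fewer than 10 reads in each of the 12 libraries. The median of the X genes' mean tails was 47.9 and 48.4 nt in pos-1 RNAi, 46.7 and 51.4 nt in gld-3 RNAi, 48.5 and 48.8 nt in gld-2 RNAi, 45.3 and 48.8 nt in mex-5 RNAi, 44.9 nt in both mex-6(pk440) libraries and 46.8 and 42.6 nt in N2. The autosomal medians were 44.5 and 45.1 nt, 41.9 and 46.2 nt, 45.2 and 45.5 nt, 42.3 and 45.8 nt, 41.7 and 41.7 nt, and 43.7 and 40.0 nt. X was longer in 12 of 12 libraries and was the highest of the 6 chromosomes in each, although replicates of 1 group differed by up to 4.69 nt.

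The X minus autosome difference in tail averaged 3.46 nt and was widest in gld-3 RNAi. It was 5.04 ± 0.28 nt in gld-3 RNAi, between 3.01 and 3.32 nt in the other RNAi and mutant groups, and 2.90 ± 0.39 nt in N2 (SD, n = 2 each). The gld-3 RNAi pair, at 4.84 and 5.23 nt, lay above the 10 other libraries, at 2.63 to 3.34 nt. The difference was seen at every level. In 5 bins that each held an equal part of these X genes by mean CPM, X tails over all libraries were longer than autosomal ones by 1.88, 3.83, 4.85, 3.78 and 3.36 nt, from the lowest level to the highest. Among X genes 61 (8.96%) averaged over 60 nt and 37 (5.43%) under 30 nt, against 235 (5.16%) and 344 (7.55%) of the autosomal genes.

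**Figure D2:**
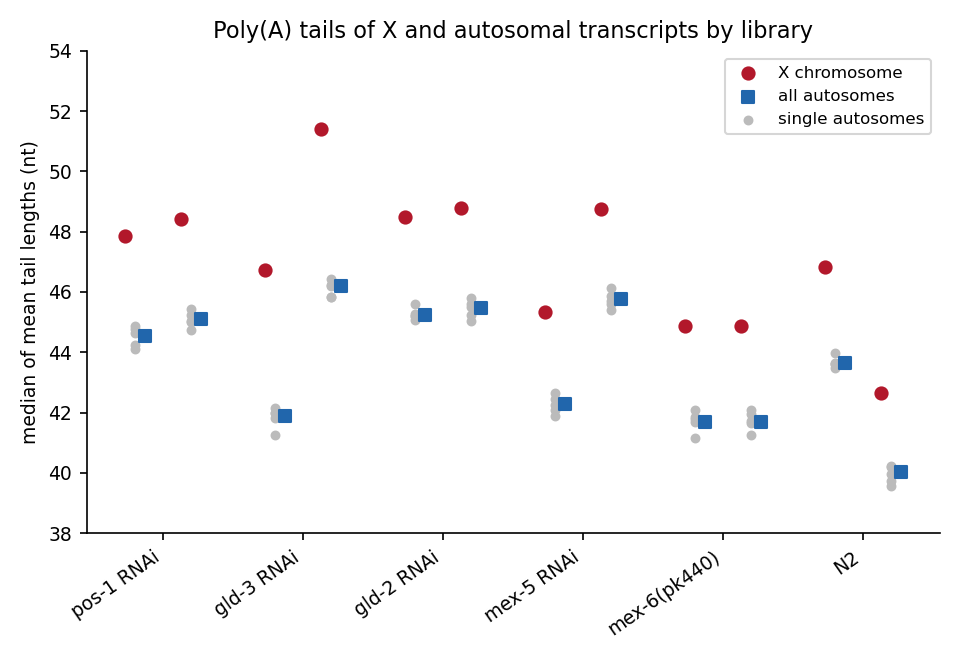
Median over genes of the mean poly(A) tail (nt) in each of 12 libraries; the axis does not start at 0. Red circles are 681 X genes, blue squares 4558 autosomal genes and grey points single autosomes; X is the highest chromosome in every library, and its distance from the autosomes is largest in the gld-3 RNAi pair.

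Tails differed far more between X genes than between chromosomes. The longest, among X genes with at least 50 reads in every library, were those of F38E9.1 (mean 76.5 nt, range 66.5 to 85.4 nt), C26B9.6 (72.6 nt), uggt-1 (71.7 nt) and ags-3 (71.6 nt). uggt-1 encodes a glucosyltransferase that checks glycoprotein folding, and ags-3 a regulator of G protein signalling. The shortest were those of dpy-3 (10.9 nt), syx-6 (12.1 nt), ceh-39 (15.6 nt) and C16H3.3 (17.9 nt). dpy-3, a cuticle collagen gene (chrX:2144649-2145639), stayed between 9.68 and 14.8 nt, although its level rose in 4 of 5 comparisons, to 908 and 642 CPM in mex-5 RNAi against 204 and 199 CPM in N2 (log2 change 2.09 ± 0.24, adjusted p = 5.1e-05). syx-6, a syntaxin gene, stayed between 78.2 and 108 CPM and between 9.57 and 15.1 nt. For C16H3.3, 91.5% of the peak reads lay in a peak 7730 bp before the annotated end of the gene, so most of its reads ended inside the feature.

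Few X tails passed the test against N2. With limma and Benjamini-Hochberg adjustment over 5471 features, 2 X genes were called in mex-5 RNAi, and both were shorter (0.402% of all features tested were called in either direction and 0.128% were called shorter). irld-23 tails were 22.4 and 24.7 nt in mex-5 RNAi against 43.5 and 36.3 nt in N2 (difference -16.4 ± 2.4 nt SE, adjusted p = 0.016). F23A7.8 tails (chrX:16213301-16213504) were 17.6 and 19.7 nt in mex-5 RNAi against 31.4 and 27.7 nt in N2 (difference -10.9 ± 1.5 nt, adjusted p = 0.014). The level of F23A7.8 fell in mex-5 RNAi as well (log2 change -1.24 ± 0.39, edgeR adjusted p = 0.029). Tails of both genes were shorter in each mex-5 RNAi library than in any of the other 10 libraries. With the 4 samples of the comparison alone, or without either mex-5 RNAi library, no X tail was called in mex-5 RNAi.

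No X tail was called by limma in pos-1, gld-3 or gld-2 RNAi or mex-6(pk440) (all features tested were called at 0.0183%, 0.0183%, 0.238% and 0%). Without adjustment, 75, 104, 74 and 29 X genes had a limma p under 0.05 in these groups. That was 11.0%, 15.3%, 10.9% and 4.26% of X genes, against 11.6%, 15.2%, 17.0% and 3.38% of autosomal genes. With each library centred on its median, 1 X gene was called in gld-3 RNAi. With log2 tails, 1 was called in gld-2 RNAi and 6 in mex-5 RNAi. In gld-3 RNAi the median fitted difference from N2 was 3.87 nt over the X genes and 1.82 nt over the autosomal genes, and 534 of 681 X genes (78.4%) were longer than in N2, against 63.6% of the autosomal ones. The medians of X and autosomal genes were 2.99 and 2.64 nt in pos-1 RNAi, 3.03 and 2.66 nt in gld-2 RNAi, 1.97 and 1.79 nt with mex-5 RNAi, while mex-6(pk440) had -0.11 and -0.23 nt. Without N2 replicate 2 the gap between X and autosomes changed sign in pos-1 RNAi (-0.20 nt), gld-2 RNAi (-0.11 nt), mex-5 RNAi (-0.25 nt) and the mex-6(pk440) mutant (-0.074 nt), and was 1.64 nt in gld-3 RNAi.

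The X signal elements were well expressed, and xol-1, the switch gene that they repress, had a lower level than they did. ceh-39, a homeodomain gene (chrX:1854399-1855870), averaged 205 CPM, sex-1, a nuclear hormone receptor gene (chrX:10201562-10205361), 187 CPM, and fox-1, which encodes an RNA-binding protein (chrX:2446067-2450487), 96.8 CPM. xol-1 (chrX:8041278-8044360) averaged 8.17 CPM. The median X gene with a mean of at least 1 CPM stood at 8.04 to 15.1 CPM in the 12 libraries, so this level was not unusual for X. None of these 4 passed the test in pos-1 RNAi, gld-3 RNAi, gld-2 RNAi or mex-6(pk440), and sex-2 was not found as a feature of 1 coding gene.

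In mex-5 RNAi 2 of the 4 fell, beside 12.5% of all features lower in this group. xol-1 had 2.07 and 1.01 CPM in mex-5 RNAi against 10.5 and 12.3 CPM in N2 (log2 change -2.63 ± 0.50 SE, adjusted p = 0.0015), and its groups did not overlap. fox-1 had 59.2 and 52.1 CPM in mex-5 RNAi against 90.1 and 113 CPM in N2 (log2 change -0.71 ± 0.23, adjusted p = 0.031). sex-1 had 161 and 99.2 CPM in mex-5 RNAi against 224 and 219 CPM in N2 (adjusted p = 0.12), and ceh-39 had 109 and 143 CPM against 231 and 190 CPM (adjusted p = 0.17). All 4 were thus lower in both mex-5 RNAi libraries than in N2, and 2 passed the test. The autosomal signal element sea-2 fell as well (55.8 and 32.4 CPM in mex-5 RNAi, 149 and 91.4 CPM in N2, log2 change -1.30 ± 0.37, adjusted p = 0.018).

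Genes of the dosage compensation complex, which acts on X, were found for 9 of 10 members, of which sdc-1 and sdc-2 lie on X. In pos-1 RNAi 5 of the 9 rose and none fell, in gld-3 RNAi 3 rose and in gld-2 RNAi 1 rose, beside 4.69%, 4.06% and 14.4% of all features higher in these groups. The count of 1 of 9 in gld-2 RNAi is near that background. sdc-2 (chrX:11522673-11533058), which targets the complex to X, rose to 56.7 and 52.8 CPM in pos-1 RNAi, against 21.6 and 17.4 CPM in N2 (log2 change 1.53 ± 0.36, adjusted p = 0.013). It had 53.3 and 39.2 CPM in gld-3 RNAi (adjusted p = 0.05, just outside the threshold). sdc-3 on chromosome V had 154 and 107 CPM in pos-1 RNAi and 218 and 156 CPM in gld-3 RNAi, against 54.6 and 22.5 CPM in N2 (log2 change 1.78 ± 0.35, adjusted p = 0.006, and 2.24 ± 0.35, adjusted p = 0.0037). The condensin subunit genes dpy-27 and mix-1 rose in the same groups, with log2 changes of 1.22 and 1.38 in pos-1 RNAi and of 1.28 and 1.40 in gld-3 RNAi. dpy-27 also rose in gld-2 RNAi (1.04 ± 0.29, adjusted p = 0.019), and dpy-21, a histone demethylase of the complex, rose in pos-1 RNAi (0.84 ± 0.21, adjusted p = 0.018). sdc-1 stayed between 24.1 and 34.5 CPM in the 12 libraries and passed in no comparison. Of a list of autosomal genes of germline chromatin, 4 of 6 were found and 3 tested. Among these xnd-1, on chromosome III, fell to 34.6 and 20.4 CPM in gld-2 RNAi and 62.0 and 34.9 CPM in mex-5 RNAi, against 124 and 135 CPM in N2 (adjusted p = 0.00078 and 0.014), and no other member passed the test in any comparison.

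**Figure D3:**
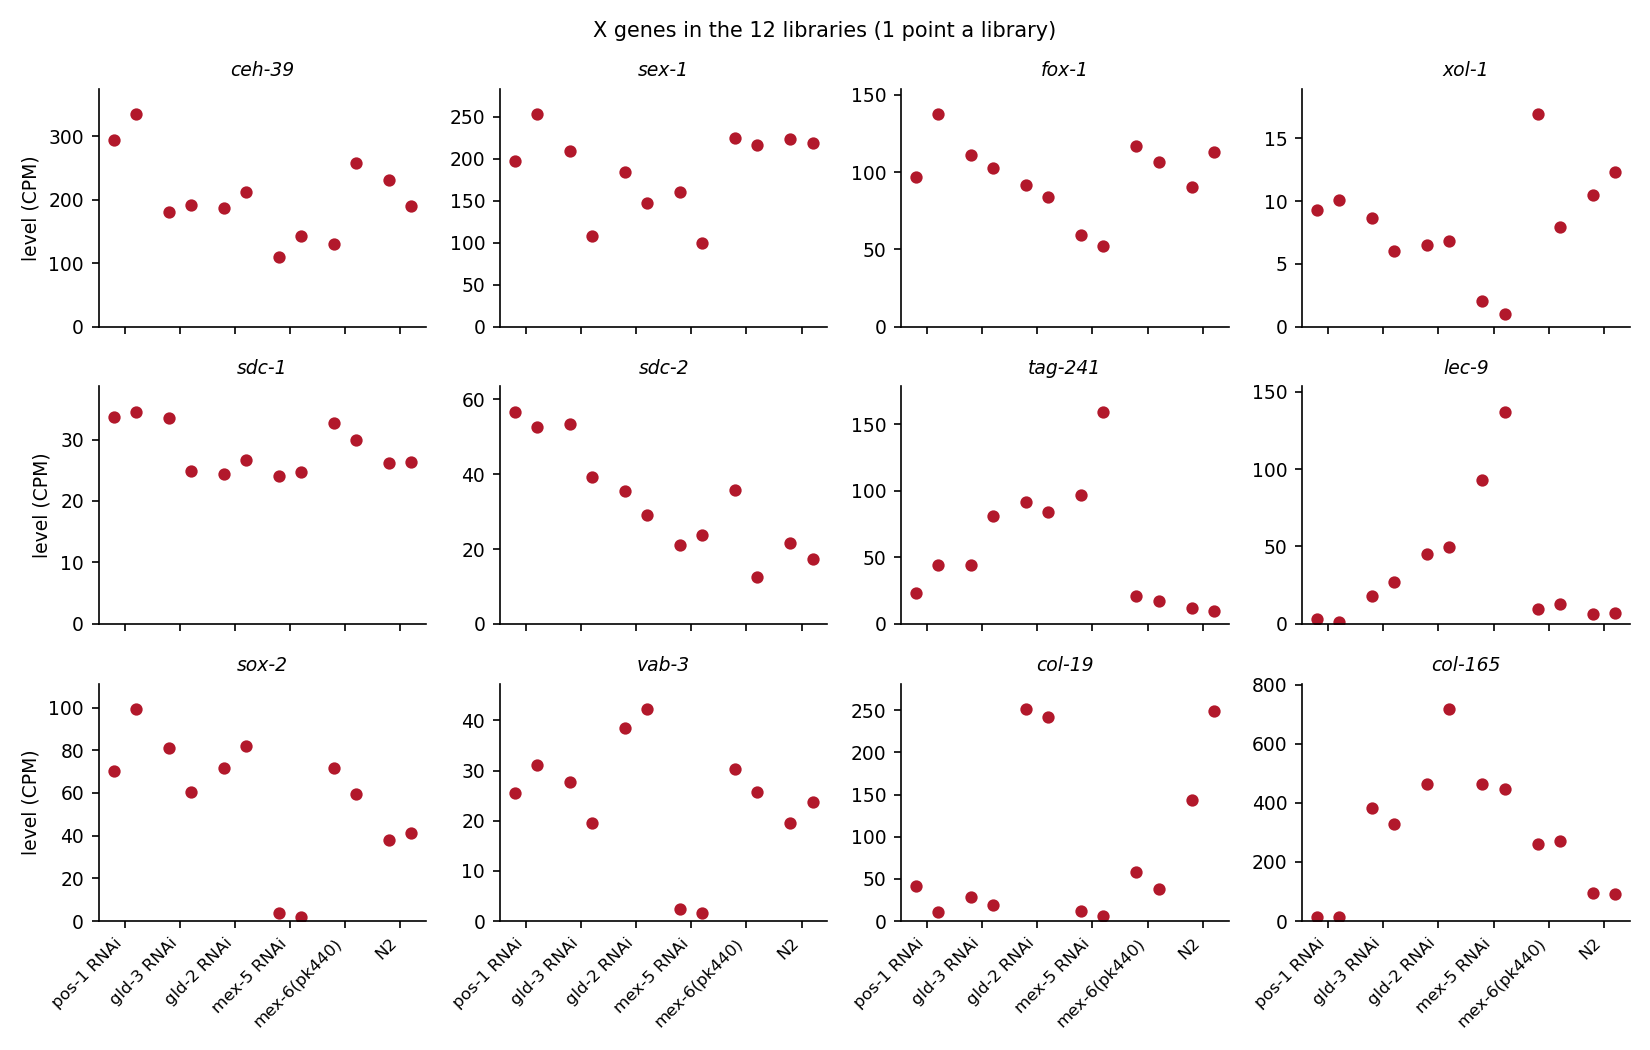
Level (CPM, linear axes from 0, 1 point a library, 2 libraries a group) of 12 X genes: 3 X signal elements and xol-1, 2 dosage compensation genes, tag-241, lec-9, 2 transcription factor genes and 2 collagen genes. xol-1, sox-2 and vab-3 are lowest in mex-5 RNAi, and col-19 is high in gld-2 RNAi and N2.

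Against N2, X genes shifted most in gld-2 RNAi, and upward. Of the 2592 X genes, 1380 (53.2%) passed the low-count filter and were tested, with a median log2 change of 0.37 against -0.07 over 7556 autosomal genes. edgeR called 366 X genes in gld-2 RNAi (26.5% of those tested, beside 27.2% of all 9403 features tested), of which 292 were higher and 74 lower. So 21.2% of X genes tested were higher and 5.36% lower, against 13.3% and 14.4% of autosomal genes and 14.4% and 12.8% of all features. Chromosome medians were 0.37 on X, 0.11 on V, -0.01 on IV, -0.10 on I, -0.10 on II and -0.19 on III. Each library showed the gap between X and autosomes, 0.42 and 0.40 in gld-2 RNAi, against -0.004 and 0.004 in N2 (each library against the N2 mean). By level, in 5 bins with equal numbers of X genes it was 0.18, 0.34, 0.37, 0.36 and 0.33, from the lowest level to the highest. Without gld-2 RNAi replicate 1 or 2, 203 and 208 X genes were called (179 and 176 higher), and without N2 replicate 1 or 2, 167 and 221 (127 and 174 higher). The muscle and cuticle markers given above also had a higher sum in gld-2 RNAi than in N2, and 3 of 7 were called higher. Yolk and intestine markers (7 of 8 found) summed to 1231 to 1291 CPM in gld-2 RNAi and 537 to 890 CPM in N2. Of these 7, 1 was called higher in gld-2 RNAi, while in mex-5 RNAi 2 were higher and 5 lower. These lists are not separate from the X genes, since 5 of the 7 yolk and intestine markers and 2 of the 7 muscle and cuticle markers lie on X. The part of both lists in the X shift was not tested.

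**Figure D4:**
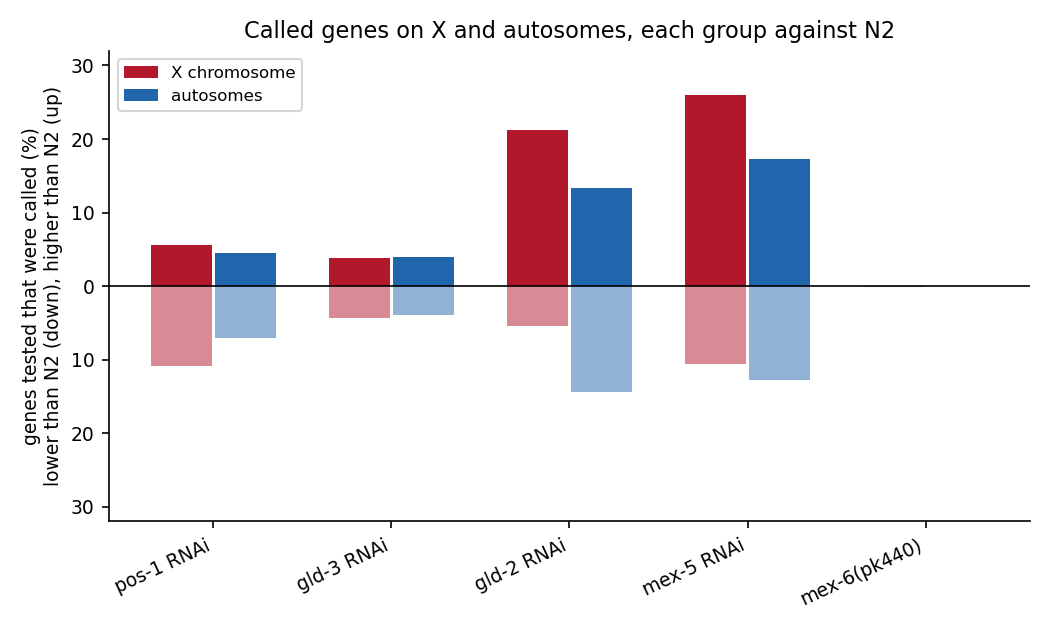
Percent of tested genes called higher (upward) and lower (downward, paler) than N2 by edgeR, X in red and autosomes in blue, in 5 comparisons. In gld-2 RNAi 21.2% of X genes were higher and 5.36% lower, while autosomal calls were split 13.3% and 14.4%.

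Among X genes with a gene symbol, those with the largest rise in gld-2 RNAi were mam-1, dyf-6, lmp-2 and cnc-8. dyf-6, which serves intraflagellar transport in cilia, had 8.78 and 5.74 CPM in gld-2 RNAi against 0.911 and 0 CPM in N2 (log2 change 3.49 ± 0.73, adjusted p = 0.0047). cnc-8, of the caenacin family of antimicrobial peptides, had 15.1 and 24.5 CPM against 1.37 and 3.40 CPM in N2 (3.05 ± 0.51, adjusted p = 0.0013). mam-1 and lmp-2 were at or below 4.17 CPM in gld-2 RNAi and below 1 CPM in N2, so their changes of 4.17 ± 1.05 and 3.21 ± 0.81 rest on few reads. Among more abundant X genes, let-2, the type IV collagen of basement membranes, had 325 and 290 CPM in gld-2 RNAi against 99.9 and 94.0 CPM in N2 (1.56 ± 0.30, adjusted p = 0.0027). The largest falls among such genes were in crn-4, fbxa-120, ent-5 and phf-31. crn-4, a nuclease gene of cell death, had 5.02 and 1.57 CPM in gld-2 RNAi against 31.6 and 14.5 CPM in N2 (-2.79 ± 0.53, adjusted p = 0.0029). ent-5, a nucleoside transporter gene, had 4.52 and 7.83 CPM against 20.3 and 34.4 CPM (-2.29 ± 0.41, adjusted p = 0.0019).

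The upward shift on X was also seen in mex-5 RNAi, where the number of X genes called was the highest of the 5 comparisons. There 506 X genes were called (36.7%, beside 30.8% of all features), 359 higher and 147 lower. Thus 26.01% of X genes were higher and 10.7% lower, against 17.3% and 12.7% of autosomal genes and 18.4% and 12.5% of all features. The autosome nearest to X in the share of higher genes was V, with 23.8% of its genes higher and 12.3% lower. The median log2 change was 0.24 on X and -0.09 on the autosomes, and the gap in the mex-5 RNAi libraries was 0.33 and 0.29. By level bin the gap was 0.18, 0.42, 0.30, 0.29 and 0.32. Leaving out any library of the comparison gave 349 to 396 X calls. Sperm genes of the msp family, none of them on X, summed to 24.3 to 34.1 CPM in mex-5 RNAi against 349 to 519 CPM in N2, with msp-32 at 0 in all libraries. Early embryo markers summed to 2888 to 3231 CPM in mex-5 RNAi, 3432 to 3922 CPM in gld-2 RNAi and 5356 to 6426 CPM in N2. That list holds mex-5 itself, so part of its lower sum in mex-5 RNAi was set by the knockdown. Of its 9 genes tested, 4 were called lower in mex-5 RNAi and 6 in gld-2 RNAi, and none higher. The part of these marker lists in the X shift was not tested.

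**Figure D5:**
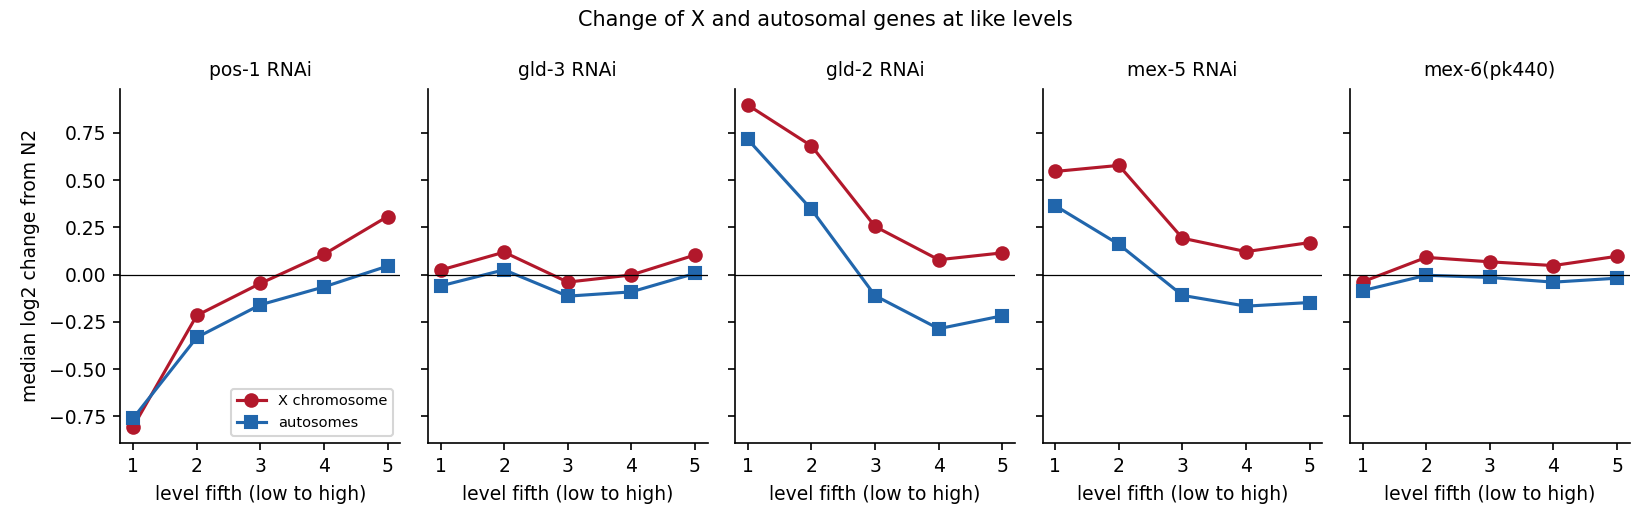
Median log2 change from N2 (vertical) of X genes (red circles) and autosomal genes (blue squares) in 5 bins of mean level with equal numbers of tested X genes (horizontal, low to high), one panel a comparison. In gld-2 and mex-5 RNAi the X line lies above the autosomal line in all 5 bins.

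The largest rises among X genes with a symbol in mex-5 RNAi were in cnc-8, lec-9, cebp-1 and fip-5. lec-9, a galectin gene (chrX:17600447-17601347), had 92.7 and 137 CPM in mex-5 RNAi against 6.37 and 7.23 CPM in N2 (log2 change 4.24 ± 0.39, adjusted p = 1.6e-05). It also rose in gld-2 RNAi (44.9 and 49.6 CPM, 2.70 ± 0.39, adjusted p = 0.00056) and gld-3 RNAi (18.1 and 27.1 CPM, 1.75 ± 0.39, adjusted p = 0.016). cnc-8 had 56.8 and 63.3 CPM in mex-5 RNAi (4.92 ± 0.50, adjusted p = 2.3e-05). cebp-1, a bZIP transcription factor gene, had 34.1 and 23.8 CPM in mex-5 RNAi against 1.82 and 2.98 CPM in N2 (3.80 ± 0.39, adjusted p = 2.3e-05). fip-5 had 31.7 and 50.6 CPM in mex-5 RNAi against 2.28 and 4.68 CPM in N2. Among the falls, osm-5, another gene of intraflagellar transport, had no read in either mex-5 RNAi library against 3.87 and 2.98 CPM in N2. With 3 reads allowed per library this is at least 2.68-fold lower (adjusted p = 0.0047). ttr-14, of the transthyretin-related family, had 0.689 and 0 CPM in mex-5 RNAi against 16.2 and 16.2 CPM in N2 (-5.04 ± 0.81, adjusted p = 0.0005). ttr-42 was at 0 in both mex-5 RNAi libraries and at 3.87 and 6.38 CPM in N2, which is at least 4.02-fold lower (adjusted p = 0.018). nspc-17 was at 0 in mex-5 RNAi as well, at least 3.24-fold lower than in N2 (adjusted p = 0.0086).

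X-linked regulators and tissue genes moved in opposite directions in mex-5 RNAi. Of the 19 genes listed, all were found on X and 16 were tested. In mex-5 RNAi 6 rose and 4 fell, in gld-2 RNAi 5 rose and none fell, in pos-1 RNAi 3 rose and 3 fell, and in gld-3 RNAi and mex-6(pk440) none passed the test. Of all features 18.4% were higher and 12.5% lower in mex-5 RNAi, 14.4% and 12.8% in gld-2 RNAi, and 4.69% and 7.52% in pos-1 RNAi. The 4 that fell in mex-5 RNAi act in neural and epidermal development. sox-2, an SRY-box gene (chrX:7458972-7460465), had 3.79 and 2.02 CPM in mex-5 RNAi against 38.02 and 41.2 CPM in N2 (-3.54 ± 0.35, adjusted p = 2.1e-05). vab-3, the worm Pax6 gene (chrX:10509389-10518589), had 2.41 and 1.52 CPM against 19.6 and 23.8 CPM in N2 (-3.23 ± 0.38, adjusted p = 5.8e-05). unc-6, which encodes netrin, had 3.10 and 1.01 CPM against 24.6 and 25.1 CPM in N2 (-3.32 ± 0.55, adjusted p = 0.00066), and lin-32, a proneural gene of the atonal type, had 1.38 and 0.506 CPM against 5.24 and 7.23 CPM in N2 (-2.39 ± 0.64, adjusted p = 0.013).

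The 6 that rose were let-2, fkh-9, hnd-1, kin-2, nmy-1 and myo-2. let-2 had 544 and 319 CPM in mex-5 RNAi (2.30 ± 0.30, adjusted p = 0.00012). fkh-9, a forkhead gene, had 24.1 and 28.3 CPM in mex-5 RNAi against 7.74 and 7.23 CPM in N2 (1.94 ± 0.33, adjusted p = 0.0008). hnd-1, a Hand-type gene of the mesoderm, had 54.4 and 44.0 CPM against 25.7 and 26.4 CPM in N2 (1.07 ± 0.30, adjusted p = 0.017). In the opposite direction from mex-5 RNAi, sox-2 and vab-3 rose in gld-2 RNAi: sox-2 to 71.7 and 81.9 CPM (0.86 ± 0.26, adjusted p = 0.028) and vab-3 to 38.4 and 42.3 CPM (0.80 ± 0.27, adjusted p = 0.042). The 3 that rose in pos-1 RNAi were sox-2 (70.4 and 99.3 CPM, 1.15 ± 0.26, adjusted p = 0.012), nhr-25 (154 and 206 CPM against 79.5 and 89.3 CPM in N2, 1.15 ± 0.24, adjusted p = 0.0086) and nmy-1, a non-muscle myosin gene (1.08 ± 0.27, adjusted p = 0.02). elt-2, the GATA factor gene of the intestine (chrX:10481180-10483125), fell in pos-1 RNAi, to 0.487 and 0 CPM against 9.11 and 5.53 CPM in N2 (-4.44 ± 0.83, adjusted p = 0.0046). myo-2, the pharyngeal myosin gene, and unc-6 also fell there.

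In pos-1 RNAi more X genes fell than rose. There 227 X genes were called (16.4%, beside 12.2% of all features), 77 higher (5.58%, beside 4.69% of all features) and 150 lower (10.9%, beside 7.52%), while the median log2 change was -0.02 on X and -0.11 on the autosomes. Chromosome V had a like split, with 4.27% of its genes higher and 11.9% lower. The split of calls differed between levels, on X and on the autosomes. In the highest of the 5 level bins 15.9% of X genes were higher and 6.52% lower, against 8.03% and 3.22% of autosomal genes. In the second lowest bin 0.725% of X genes were higher and 17.0% lower, against 1.94% and 11.6% of autosomal genes. Among X genes with a symbol the largest rises were in dpy-22, col-174, cutl-21 and tag-241. dpy-22, a Mediator subunit gene (chrX:9810411-9822112), had 300 and 408 CPM in pos-1 RNAi against 81.0 and 53.1 CPM in N2 (2.44 ± 0.37, adjusted p = 0.0019). Among the falls, pbo-4, a sodium-proton exchanger gene, had no read in either pos-1 RNAi library and 2.05 and 2.55 CPM in N2 (at least 2.43-fold lower, adjusted p = 0.01). ttr-42 had none either (at least 5.41-fold lower, adjusted p = 0.022), and flp-12 fell too. The number of X calls was 72 without pos-1 RNAi replicate 2, 85 without N2 replicate 2 and 68 with the 4 samples alone. Sperm markers summed to 80.3 to 131 CPM in pos-1 RNAi against 349 to 519 CPM in N2, with 17 of 25 lower, and the other marker lists also differed. Their part in the X falls was not tested.

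In gld-3 RNAi X genes were called about as often as others. There 113 X genes were called (8.19%, beside 8.08% of all features), 53 higher (3.84%, beside 4.06% of all features) and 60 lower (4.35%, beside 4.02%), with medians of 0.04 on X and -0.03 on the autosomes. The number was 28 without gld-3 RNAi replicate 2, 74 without N2 replicate 1 and 17 without N2 replicate 2. Among X genes with a symbol the largest rises were in dpy-22 (307 and 476 CPM in gld-3 RNAi, 2.55 ± 0.37, adjusted p = 0.0025), tag-241, ifd-2 and col-165. tag-241 (chrX:11826025-11835814) had 44.1 and 81.4 CPM in gld-3 RNAi against 11.6 and 9.78 CPM in N2 (2.55 ± 0.41, adjusted p = 0.0039). It also rose in pos-1, gld-2 and mex-5 RNAi, in the last to 96.4 and 159 CPM. ifd-2, an intermediate filament gene, had 18.4 and 15.1 CPM in gld-3 RNAi against 5.46 and 2.55 CPM in N2 (1.96 ± 0.53, adjusted p = 0.04). The largest falls among them were in ttr-42, flp-18, nspc-17 and ttr-14. These comparisons share the N2 libraries.

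In mex-6(pk440) 1 X gene was called, beside 2 features of all (0.0213%). col-178, a collagen gene (chrX:11199411-11200311), had 8.60 and 10.8 CPM in mex-6(pk440) against 254 and 418 CPM in N2 (-5.17 ± 0.63, adjusted p = 0.0068). No X gene was called higher by edgeR in the fit of all 12 libraries. In that fit 143 of 1380 X genes and 683 of 7556 autosomal genes had an unadjusted p under 0.05 in either direction. Other settings called more X genes: DESeq2 called 15 (3 higher), edgeR with the 4 samples alone 12 (1 higher) and edgeR with no low-count filter 35 (5 higher). Without either mex-6(pk440) library no X gene was called, and without N2 replicate 1 there were 4. The median log2 change was 0.07 on X and -0.02 on the autosomes.

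Most X collagen genes tested fell in pos-1 RNAi. Of 25 X collagen genes 14 were tested. In pos-1 RNAi 13 fell and 1 rose, in gld-3 RNAi 5 fell and 1 rose, in mex-5 RNAi 6 fell and 3 rose, and in gld-2 RNAi 4 rose and none fell. Of 61 autosomal collagen genes tested, 43 fell in pos-1 RNAi, 33 in gld-3 RNAi and 27 in mex-5 RNAi, and 14 rose in gld-2 RNAi. Of all features tested, 7.52%, 4.02% and 12.5% were lower in pos-1, gld-3 and mex-5 RNAi and 14.4% were higher in gld-2 RNAi. col-181 (chrX:12104862-12105917) had 135 and 29.5 CPM in pos-1 RNAi, 104 and 79.1 CPM in gld-3 RNAi, 954 and 886 CPM in gld-2 RNAi and 52.7 and 35.9 CPM in mex-5 RNAi, against 460 and 915 CPM in N2. col-19 was likewise high in gld-2 RNAi (252 and 243 CPM) and N2 (143 and 249 CPM), and fell in pos-1, gld-3 and mex-5 RNAi. In mex-6(pk440) it had 58.1 and 37.4 CPM (adjusted p = 0.12). col-165 (chrX:4353612-4354762) had 13.1 and 14.4 CPM in pos-1 RNAi, 384 and 328 CPM in gld-3 RNAi, 464 and 718 CPM in gld-2 RNAi and 464 and 446 CPM in mex-5 RNAi, against 93.8 and 90.1 CPM in N2. It fell in the first (-2.68 ± 0.27, adjusted p = 0.00039) and rose in the 3 others, by 1.95, 2.60 and 2.46.

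The yolk protein genes found sit mostly on X, and all 4 X members fell in pos-1 and mex-5 RNAi and 2 of them in gld-3 RNAi. vit-3 was not found as a feature of 1 coding gene. Of all features 7.52%, 12.5% and 4.02% were lower in these groups. The 1 autosomal vit gene fell in the same groups (log2 change -2.52 in pos-1, -2.47 in mex-5 and -1.41 in gld-3 RNAi). In mex-6(pk440) no vit gene was called, although the median log2 change was -2.34 on X and the autosomal gene had -2.25. vit-4 had 39.4 and 15.9 CPM in pos-1 RNAi and 22.4 and 19.7 CPM in mex-5 RNAi, against 120 and 217 CPM in N2 (-2.50 ± 0.39, adjusted p = 0.0022, and -2.83 ± 0.40, adjusted p = 0.00022). In gld-2 RNAi it had 263 and 246 CPM (adjusted p = 0.3). These genes are made in the adult intestine, and the yolk and intestine list that holds them summed to 61.3 to 168 CPM in pos-1 RNAi, 634 to 639 CPM in mex-5 RNAi and 537 to 890 CPM in N2. Of 9 neuropeptide genes of the nlp and flp families tested on X, 5 fell in pos-1 RNAi and 4 in mex-5 RNAi, and none rose in either (7.52% and 12.5% of all features were lower). Of 31 autosomal members tested, 8 fell and 3 rose in pos-1 RNAi, and 8 fell and 11 rose in mex-5 RNAi. The muscle and cuticle markers were lowest in pos-1 RNAi, as given above. That list itself holds the collagen genes col-12, col-19 and col-140. Its part in the collagen and neuropeptide falls was not tested.

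Some families were nearly missing from X. X held 2 of 66 cytosolic ribosomal protein genes (rpl-25.1 at a mean of 415 CPM and rpl-11.2 at 274 CPM), none of 28 msp genes, 31 of 1069 chemoreceptor genes of the sr families and 3 of 178 clec genes. By contrast X held 18 of 59 ceh homeobox genes, 21 of 69 nlp and flp genes and 4 of the 5 vit genes found. Of the 18 ceh genes 10 were tested, and in mex-5 RNAi 4 fell and 1 rose, as did 15 and 3 of 28 autosomal ceh genes (12.5% of all features were lower and 18.4% higher). One that fell was ceh-21, next to ceh-39, at 76.8 and 88.0 CPM in mex-5 RNAi against 191 and 177 CPM in N2 (-1.01 ± 0.22, adjusted p = 0.0036). Of 14 nuclear hormone receptor genes tested on X, 6 rose in mex-5 RNAi and none fell, while 24 of 84 autosomal ones rose and 4 fell (18.4% of all features were higher).

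Along the chromosome, detection was lowest in the fourth of 5 stretches, and tails were shortest in the first. In 5 equal stretches of X, from left to right, a mean of 59.1%, 59.2%, 59.4%, 51.4% and 60.7% of genes were detected, and the mean of the 12 median tails lay between 45.9 and 48.0 nt in all of them. The first stretch of chromosome IV had 47.2 nt, which was above the first and last stretches of X, at 45.9 and 46.4 nt. X and autosomal genes also had like numbers of poly(A) sites: of level genes with a peak, 21.3% on X and 19.5% on autosomes had 2 or more, and 4.89% of X peaks and 4.05% of autosomal peaks had no parent gene. The median X gene spanned 2660 bp and the median autosomal gene 2023 bp.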

How the data were processed

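Counts are the authors' whole-number reads per gene feature and per poly(A) peak, not normalized; tails are the authors' mean poly(A) length in nt per feature, with NA where none was given, and the reads behind each mean are not known. Bowtie2 2.2.2 and the build ce10 stand in the submitters' processing notes; per the file headers genes are UCSC RefSeq genes of ce10 and peaks were called with nesoni. The deposited columns for the mutant are named as RNAi; the titles, which give mex-6(pk440), were followed. Of the names in the gene table, 27714 of 28218 (98.2%) matched the reference names. If features with a product field naming 1 protein were kept whatever their names, X had 2680 members.

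All reads on features came to 4613974 to 10229871 a library. Levels are CPM over reads on features naming 1 coding gene. All 31753 features were fitted with edgeR 4.0.16 (filterByExpr, 9403 tested, TMM, quasi-likelihood test, 1 coefficient a group), and the tails of 5471 features with limma 3.58.1 (variance trend on log2 mean reads). P-values were adjusted over all features tested (Benjamini-Hochberg, threshold 0.05). Fits were tested on simulated data. Where a group had no read, 3 reads per library were allowed. Named genes were the 10 highest X genes, members of fixed lists, up to 4 largest rises and falls per comparison without overlap (genes with a sequence name alone were left out where others served), the 4 longest and 4 shortest tails, called tails, and up to 3 genes a family. The members and lists were chosen with earlier results of these data known. Alternatives were DESeq2 1.42.0, other scaling, filters, controls and libraries left out.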

Additional observations from a re-analysis of the deposited data

How the results depend on the processing

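The X minus autosome difference in detection (0.052 points over 12 libraries) was 2.01 with at least 1 read, -3.07 with 10 reads, -4.42 with 5 CPM, -4.47 in thinned libraries and -7.30 without chromosome V. The log2 level ratio (-1.04) was -0.99 at a minimum mean of 0.1 CPM, -0.69 at 5 CPM, -0.66 with at least 1 read, -0.78 by mean logs and -0.67 over genes detected in all libraries (chosen after seeing the data, as was the 2680-member rule, which was run for detection, level and tail per library and moved each by less than the spread between libraries). The X minus autosome gap in median log2 change was, with no low-count filter, 0.022 in pos-1 RNAi, 0 in gld-3 RNAi, 0.36 in gld-2 RNAi, 0.087 in mex-5 RNAi and 0.025 in mex-6(pk440). With mex-6(pk440) in place of N2 it was -0.030, -0.0052, 0.36 and 0.25 in the 4 RNAi groups, and X calls were 92 in pos-1 RNAi and 3 in gld-3 RNAi. With autosomal genes weighted to X levels, an alternative chosen after seeing the data, it was 0.14 in pos-1, 0.35 in gld-2 and 0.30 in mex-5 RNAi. With the 4 samples of a comparison alone it was 0.13 in pos-1 and 0.37 in mex-5 RNAi, X calls were 68 in pos-1 RNAi, 47 in gld-3 RNAi and 12 in mex-6(pk440), and tail calls 0 in mex-5 RNAi. Without a filter X calls were 182 in gld-3 RNAi and 35 in mex-6(pk440), and DESeq2 gave 15 in mex-6(pk440). Tail calls were 1 (gld-3, centred), 1 (gld-2, log2), and 6 and 4 (mex-5, log2 and centred). At 50 reads the tail gap was -0.090 nt in mex-6(pk440) and 0.42 nt in mex-5 RNAi. The cause was not tested.

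Leaving out 1 library gave 72 to 175 X calls in pos-1, 17 to 96 in gld-3, 167 to 221 in gld-2, 349 to 396 in mex-5 RNAi and 0 to 4 in mex-6(pk440), and 0 to 2 tail calls in mex-5 RNAi. The gap in median change ranged over 0.035 to 0.082, 0.063 to 0.11, 0.35 to 0.50, 0.30 to 0.37 and 0.078 to 0.088, and that in tail over -0.20 to 1.14, 1.64 to 2.78, -0.11 to 0.80, -0.25 to 0.89 and -0.074 to 0.60 nt.

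The labels give replicate numbers no shared batch or day. Deviations of same-numbered libraries correlated at -0.15 to 0.46 (median 0.20) in log2 CPM and -0.15 to 0.25 (median 0.0093) in tails over 15 pairs of groups, so some pairs of groups shared a deviation in level and others did not. With a replicate block X calls were higher in all 5 comparisons, at 290, 161, 439 and 550 in pos-1, gld-3, gld-2 and mex-5 RNAi and 13 (3 higher) in mex-6(pk440).

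Genes of a few CPM rest on few reads, and tails were compared for 26.3% of X genes.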
